A study of Mus musculus with 3 samples.

Results

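The Hox genes are the 39 mouse genes of the HoxA, HoxB, HoxC and HoxD clusters, chosen here by symbol alone: Hox, a cluster letter from a to d and a paralog number from 1 to 13, with nothing after it. They are 39 of the 32285 genes counted, 11 in HoxA, 10 in HoxB, 9 in HoxC and 9 in HoxD. The cells came from C57BL/6 wild type mice in which a volumetric muscle loss defect of the hindlimb, a surgical loss of a block of muscle, had received PCL particles (PCL is the usual abbreviation of polycaprolactone, a synthetic polyester). The quadriceps and its fibrotic implant were taken at week 6, freed of dead cells, divided on magnetic beads into CD45+ (immune) and CD45- (stromal) fractions, and recombined in equal numbers before 10x 3′ single-cell RNA-seq. There are 3 libraries, replicates 1 to 3, all of this 1 group, so injured or implanted tissue is not set against anything here and every comparison is between cell classes of the same libraries. The labels do not say whether each replicate came from its own mouse, so p-values reflect the spread from library to library alone, and that spread may be technical. Because the recombination set the immune share, no share of a class among all cells is reported.

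Hox genes encode homeodomain transcription factors that give cells of the embryo their position along the body and limb axes. Their order along each cluster follows where and when they act: low paralog numbers (the 3′ end) work toward the head, high numbers (the 5′ end) toward the tail and the tip of the limb. Adult fibroblasts are known to keep much of this positional code, and several HoxC genes, Hoxc10 and Hoxc11 among them, are known as marks of the hindlimb as opposed to the forelimb.

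The libraries held 6068, 8643 and 4996 barcodes and between 104482261 and 192348779 unique molecular identifiers (UMIs, each counting 1 captured mRNA molecule). After removal of called doublets 17956 cells were kept, and 16 classes were named from marker genes after clustering without any Hox gene. Class names end in "-like" because they rest on markers. The largest class was fibroblast-like, with 9754 cells (2234, 5423 and 2097 by library), followed by macrophage-like (2906), neutrophil-like (961), monocyte-like (561), endothelial-like (543), mural-like (332), tenocyte-like (324), muscle fibre-like (244) and lymphatic endothelial-like (237) cells. The summed level of the 9 endothelial markers (Pecam1, Cdh5 and others) was 7773 ± 604 CPM in endothelial-like cells and 22.9 ± 3.61 CPM in fibroblast-like cells (SD, n = 3 each), and the 9 mural markers (Rgs5, Kcnj8 and others) summed to 11005 ± 708 CPM in mural-like cells and 106 ± 8.50 CPM in fibroblast-like cells. CPM is the UMI count of a gene scaled to the total UMI count of that class in that library. It is not divided by gene length, so levels are set beside each other for 1 gene across classes and never between genes. Hox genes held 28432, 46883 and 24223 UMIs in the 3 libraries, between 0.0208% and 0.0244% of all UMIs.

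Of the 39 genes, 37 had at least 1 UMI in the named classes together. There Hoxb13 and Hoxd12 had none, while Hoxa13 and Hoxc12 had 1 UMI each, Hoxc13 and Hoxd1 had 3 each and Hoxb1 had 9. The 12 Hox genes with the highest mean CPM in fibroblast-like cells were Hoxa7, Hoxa9, Hoxa10, Hoxb2, Hoxb4, Hoxc4, Hoxc5, Hoxc6, Hoxc8, Hoxc9, Hoxc10 and Hoxd8. Transcripts of some neighbours overlap in the annotation (Hoxb3 with Hoxb4, Hoxd3 with Hoxd4, Hoxd10 with Hoxd11, and Hoxa3 with Hoxa4, Hoxa5 and Hoxa6). The counting strand is not stated in the sources used here, and reads of such pairs may be assigned to either gene.

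**Figure D1:**
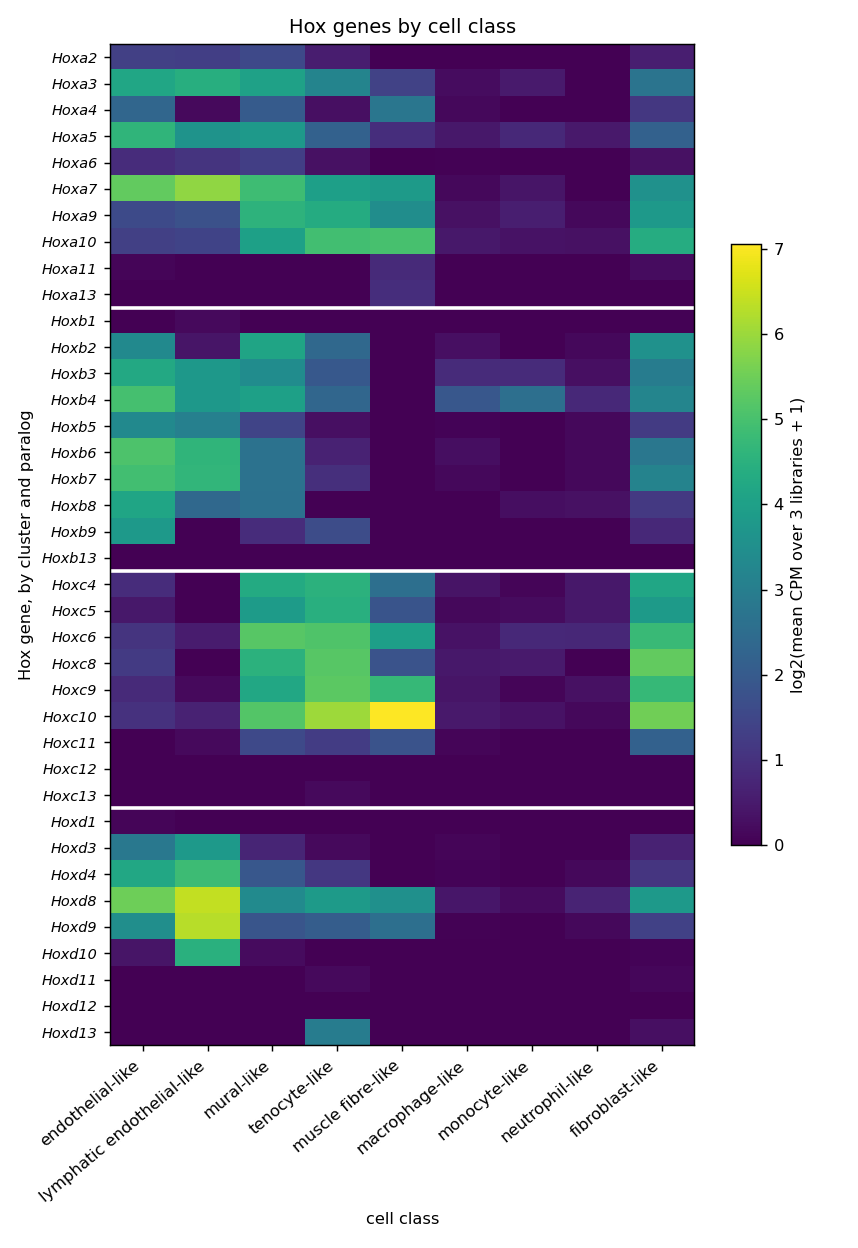
Level of Hox genes (rows, by cluster and paralog number) in 9 cell classes (columns), as log2 of the mean CPM over 3 libraries plus 1. HoxC rows are bright in mural-like, tenocyte-like, muscle fibre-like and fibroblast-like columns and dark in both endothelial columns, and the 3 immune columns are dark except for Hoxb4.

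Stromal, vascular and muscle classes carried Hox transcripts at like totals, and immune classes carried few. The summed Hox level was 334.5 ± 43.7 CPM in endothelial-like, 407 ± 38.2 in lymphatic endothelial-like, 324 ± 47.9 in mural-like, 332 ± 26.4 in tenocyte-like, 265 ± 73.4 in muscle fibre-like and 286 ± 19.4 CPM in fibroblast-like cells (SD, n = 3 each). In macrophage-like cells the sum was 8.10 ± 0.376 CPM, in monocyte-like cells 10.2 ± 1.72 and in neutrophil-like cells 5.13 ± 2.42. Cell depth differed between classes, so the share of cells with any Hox UMI was taken after thinning each cell to 5000 UMIs. It was then 80.6% ± 2.64 of endothelial-like, 77.1% ± 2.02 of mural-like, 3.90% ± 0.654 of macrophage-like and 73.8% ± 2.23 of fibroblast-like cells. Without thinning the shares were 93.2%, 90.9%, 11.1% and 96.9% in the same order of classes.

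What separated the non-immune classes was the cluster the transcripts came from. HoxC supplied 1.60% ± 0.319 of Hox UMIs in endothelial-like (4.83% with doublets kept), 0.337% ± 0.283 in lymphatic endothelial-like, 45.3% ± 4.52 in mural-like, 65.1% ± 0.689 in tenocyte-like, 69.7% ± 0.744 in muscle fibre-like and 59.8% ± 1.11 in fibroblast-like cells (SD, n = 3 libraries). HoxB supplied 47.4% ± 1.55 in endothelial-like, 20.8% ± 2.46 in lymphatic endothelial-like, 18.4% ± 0.563 in mural-like, 4.52% ± 1.38 in tenocyte-like, 0% in muscle fibre-like and 15.1% ± 0.882 in fibroblast-like cells. HoxD supplied 23.5% ± 2.91 in endothelial-like and 55.1% ± 1.43 in lymphatic endothelial-like cells, against 5.74% ± 0.106 in fibroblast-like cells. HoxA differed least, lying between 19.4% and 31.8% in these 6 classes. The paralog numbers moved as well. Paralogs 9 to 13 made up 8.53% ± 1.82 of Hox UMIs in endothelial-like, 25.8% ± 3.54 in lymphatic endothelial-like, 29.6% ± 1.11 in mural-like, 49.7% ± 4.33 in tenocyte-like, 78.6% ± 1.53 in muscle fibre-like and 38.4% ± 0.397 in fibroblast-like cells.

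**Figure D2:**
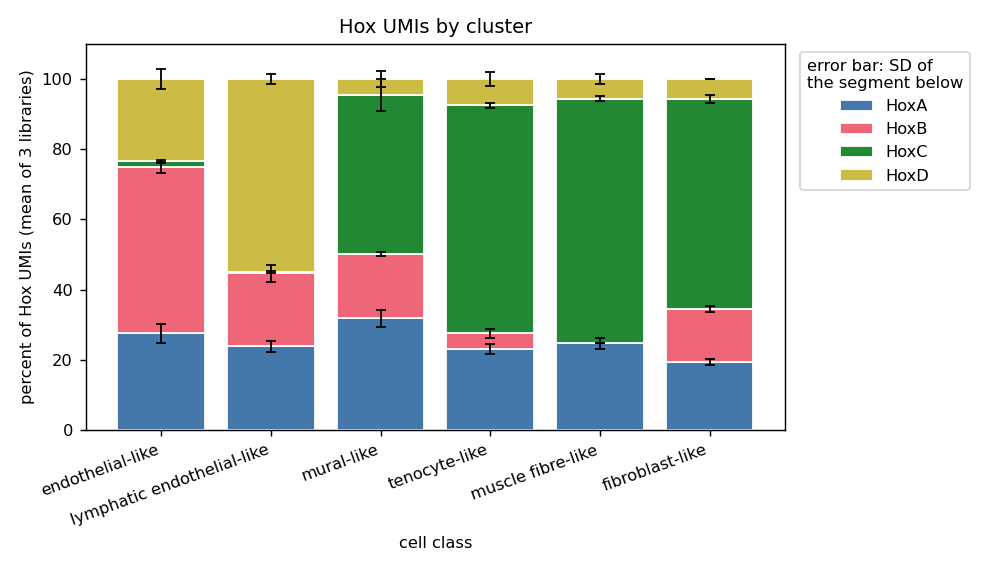
Percent of all Hox UMIs that came from each cluster (stacked bars, mean of 3 libraries, with the SD of the segment below each error bar) in 6 cell classes. The HoxC segment is 1.60% in endothelial-like cells (4.83% with doublets kept) and 59.8% in fibroblast-like cells.

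Endothelial-like cells and fibroblast-like cells carried different Hox codes. Of 28 Hox genes with enough UMIs to test, 25 were called, 16 higher and 9 lower in endothelial-like cells, where 33% of all 16572 genes tested were called. A call needed an adjusted p under 0.05 and a log2 difference of at least 1 in edgeR's quasi-likelihood test with Benjamini-Hochberg adjustment over all genes tested, with the library as a block. The median log2 difference was 1.54 over the 28 Hox genes and -0.09 over all genes tested. Sorted by cluster, all 7 HoxC genes tested were called lower, 7 of 8 HoxB genes and all 4 HoxD genes higher, and HoxA was divided, with 5 of 9 higher and 2 lower. The other 11 Hox genes had too few UMIs to test. The HoxC genes, nearly absent from endothelial-like cells, entered the test through the fibroblast-like sums and could only come out lower. TMM scaling, which corrects for RNA composition, set the fitted differences 0.20 log2 below those of plain CPM in the endothelial and mural comparisons with fibroblast-like cells.

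The HoxC genes were close to absent from endothelial-like cells. Hoxc10, a hindlimb and lumbar patterning gene, had 1.77, 0.780 and 0.478 CPM in endothelial-like cells and 42.2, 45.5 and 47.6 CPM in fibroblast-like cells of libraries 1, 2 and 3. The groups lay far apart in every library, with a log2 difference of -5.48 (SE 0.245, adjusted p 7.27e-07). Hoxc8 had 0.663, 0.780 and 2.39 CPM in endothelial-like and 38.6, 37.5 and 44.1 CPM in fibroblast-like cells, a log2 difference of -5.41 (SE 0.244). Hoxc4, Hoxc5, Hoxc6 and Hoxc9 differed by -4.48, -5.33, -4.82 and -5.25 on the log2 scale, each lower in 3 of 3 libraries. Hoxc11 had 0 UMIs in the 543 endothelial-like cells and 3.59 ± 0.267 CPM in fibroblast-like cells, which is at least 12.3-fold lower when 3 counts over the group are taken as the floor. Such floors and counting intervals cover counting error only. Summed over the cluster, HoxC had 5.43 ± 1.59 CPM in endothelial-like cells, 1.83 ± 0.547 CPM in macrophage-like cells and 1.83 ± 1.62 CPM in neutrophil-like cells, immune classes taken as the background of free RNA, and 171 ± 10.3 CPM in fibroblast-like cells. The 9 fibroblast markers summed to 236, 766 and 397 CPM in endothelial-like cells and to 54332, 56412 and 60957 CPM in fibroblast-like cells.

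HoxA changed direction between neighbouring genes. Hoxa7 had 41.3, 31.5 and 47.3 CPM in endothelial-like cells and 10.8, 10.1 and 12.1 CPM in fibroblast-like cells. The groups did not overlap, with endothelial-like cells higher (log2 difference 1.65, SE 0.119, adjusted p 1.15e-05). Hoxa9, the next gene of the cluster, had 2.43, 3.12 and 0.478 CPM in endothelial-like cells and 12.3, 11.4 and 14.8 CPM in fibroblast-like cells, and Hoxa10 had 0.883, 1.30 and 2.39 CPM against 20.9, 17.1 and 21.2 CPM. Both were lower in every library, by log2 differences of -2.67 (SE 0.339) and -4.05 (SE 0.257). On the low-numbered side Hoxa2, Hoxa3, Hoxa4 and Hoxa5 were called higher, at log2 differences of 1.54, 1.45, 1.54 and 2.55, while Hoxa6 (1.56, SE 0.628, adjusted p 0.0676) did not pass. The call for Hoxa2 was lost without library 1 or 2, and that for Hoxa4 without library 1. Hoxa5 carried the largest of these 4, with 21.6, 26.0 and 23.0 CPM in endothelial-like and 3.49, 3.1 and 4.02 CPM in fibroblast-like cells.

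HoxB and HoxD were the clusters that were higher in endothelial-like cells. Hoxb8, a gene also known from early myeloid progenitors, had 17.2, 15.9 and 17.2 CPM in endothelial-like cells and 1.30, 1.22 and 1.29 CPM in fibroblast-like cells, a log2 difference of 3.52 (SE 0.225, adjusted p 5.54e-06). Hoxb9 had 13.5, 8.06 and 17.7 CPM against 0.712, 0.935 and 0.576 CPM, a log2 difference of 3.87 (SE 0.401). Both genes kept the groups well apart, and their endothelial-like values in library 2 were the lowest of the 3. Hoxb3, Hoxb4, Hoxb5, Hoxb6 and Hoxb7 were higher by log2 differences between 1.22 and 2.59. Hoxb2 was the exception among HoxB genes tested, with 10.2, 6.76 and 10.5 CPM in endothelial-like and 11.8, 10.2 and 10.7 CPM in fibroblast-like cells, groups that overlapped (log2 difference -0.48, SE 0.180, adjusted p 0.0541). In HoxD, Hoxd8 had 38.0, 44.5 and 51.2 CPM in endothelial-like and 12.2, 12.3 and 13.8 CPM in fibroblast-like cells (log2 difference 1.59, SE 0.106). Hoxd3, Hoxd4 and Hoxd9 were higher by 3.09, 3.77 and 2.34 on the log2 scale.

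Promoter sequence is shown for the genes on which these contrasts turn: Hoxa7 and Hoxa9, neighbours on either side of the change of direction in HoxA, and Hoxb8, high in endothelial-like cells. Each is the 250 bases before the annotated gene start from RefSeq (build GRCm38.p6), 5′ to 3′ on the strand of the gene, with matches to the composite motif of PBX and Hox proteins, TGATNNAT on either strand, in capitals.
Hoxa7, chr6:52218574-52218823, minus strand: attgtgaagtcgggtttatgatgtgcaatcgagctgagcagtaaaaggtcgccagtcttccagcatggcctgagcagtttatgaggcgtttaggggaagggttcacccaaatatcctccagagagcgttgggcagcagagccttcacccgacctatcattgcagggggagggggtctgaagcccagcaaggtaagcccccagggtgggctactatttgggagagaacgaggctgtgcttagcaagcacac
Hoxa9, chr6:52227371-52227620, minus strand: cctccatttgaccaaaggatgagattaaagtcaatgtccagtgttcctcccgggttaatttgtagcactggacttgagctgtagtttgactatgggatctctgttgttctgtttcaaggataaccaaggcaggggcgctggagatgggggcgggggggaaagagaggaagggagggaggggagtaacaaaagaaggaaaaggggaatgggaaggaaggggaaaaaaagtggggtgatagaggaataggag
Hoxb8, chr11:96281655-96281904, plus strand: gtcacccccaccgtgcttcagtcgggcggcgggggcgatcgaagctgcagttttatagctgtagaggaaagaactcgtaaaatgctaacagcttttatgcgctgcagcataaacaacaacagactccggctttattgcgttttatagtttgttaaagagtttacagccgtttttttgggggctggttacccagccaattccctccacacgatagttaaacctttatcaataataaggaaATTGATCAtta
The Hoxb8 window held 1 match and the other 2 windows none. The motif was present in 2524 of 32851 promoters (7.68%) and in 4 of the 24 Hox promoters in the table (16.7%), which belong to 22 of the 39 genes. CpG dinucleotides numbered 7 in the Hoxa7 window, 3 in that of Hoxa9 and 12 in that of Hoxb8, against medians of 12.5 over Hox promoters and 6 over all promoters. A match or its absence describes these letters only and shows no binding.

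**Figure D3:**
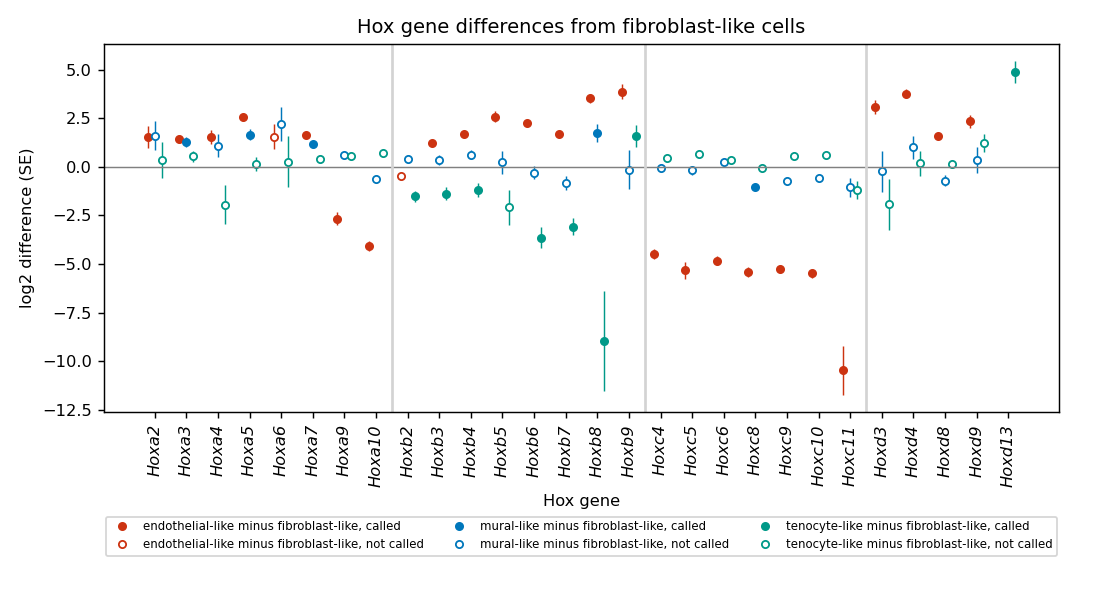
Fitted log2 difference from fibroblast-like cells, with its standard error, for Hox genes tested, in endothelial-like, mural-like and tenocyte-like cells; filled points were called. The HoxC points of endothelial-like cells lie below -4, and those of mural-like and tenocyte-like cells lie between -2 and 1. Hoxc11 in endothelial-like cells and Hoxb8 in tenocyte-like cells, the 2 lowest points, had 0 UMIs, and there the fitted value depends on the model's prior count and is no measured size.

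Lymphatic endothelial-like cells shared the lack of HoxC and had the highest HoxD share of the 6 classes above. No test was fitted for this class. Its HoxC genes had between 0 and 1.26 CPM in each library, and Hoxc4, Hoxc5 and Hoxc8 had 0 UMIs in its 237 cells. Hoxd8 had 79.3, 72.7 and 101 CPM in lymphatic endothelial-like cells, against 38.0, 44.5 and 51.2 CPM in endothelial-like cells. Hoxd9 had 74.7, 72.7 and 87.2 CPM in lymphatic endothelial-like cells and 7.07, 6.5 and 17.2 CPM in endothelial-like cells. For both genes the lowest lymphatic value was above the highest endothelial one. Hoxd10 had 14.8, 31.5 and 17.3 CPM in lymphatic endothelial-like cells, highest in library 2, and at most 0.956 CPM in any library of the endothelial-like class. It was near 0 in fibroblast-like cells too, at 0.0436 ± 0.0446 CPM. In HoxB the 2 endothelial classes parted in some genes, not only at the ends of the cluster. On cells thinned to 5000 UMIs, Hoxb4 was found in 14.4% ± 1.46 of endothelial-like and 6.71% ± 3.25 of lymphatic endothelial-like cells, without overlap. Hoxb9 had 0 UMIs in lymphatic endothelial-like cells, against 13.1 ± 4.83 CPM in endothelial-like cells, and Hoxb2 had 0.330 ± 0.296 CPM, against 9.15 ± 2.07 CPM. Hoxb6 and Hoxb7, in the middle, had 23.6 ± 9.06 and 24.0 ± 3.45 CPM in lymphatic endothelial-like cells and 32.7 ± 5.62 and 29.4 ± 5.26 CPM in endothelial-like cells, and for both genes the values of the 2 classes overlapped.

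Mural-like cells, the pericytes and smooth muscle that wrap vessels, kept a code closer to that of fibroblast-like cells. Of 28 Hox genes tested in mural-like minus fibroblast-like cells, 6 were called, 5 higher and 1 lower, where 25.2% of all 16586 genes tested were called, so the share of Hox genes called (21.4%) was near the background. The median log2 difference was 0.30 over Hox genes and -0.11 over all genes. This comparison and the endothelial one share the fibroblast-like sums. Hoxa3, Hoxa5, Hoxa7 and Hoxb8 were among the higher genes. Hoxa7 had 22.9, 24.8 and 37.2 CPM in mural-like cells and 10.8, 10.1 and 12.1 CPM in fibroblast-like cells, and Hoxa5 had 14.4, 11 and 12.8 CPM against 3.49, 3.1 and 4.02 CPM. Neither gene's groups overlapped (log2 differences 1.15, SE 0.179, and 1.65, SE 0.285). On cells thinned to 5000 UMIs Hoxa7 was not called (0.76, adjusted p 0.0725). Hoxa3 was higher by 1.28 (SE 0.238), and Hoxb8 by 1.76 (SE 0.463), a call lost without library 3 (1.45). Without library 3, 3 of 28 Hox genes tested were called.

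HoxC was present in mural-like cells. Hoxc10 had 34.0, 36.8 and 33.8 CPM in mural-like cells and 42.2, 45.5 and 47.6 CPM in fibroblast-like cells, groups that did not overlap but differed by less than 1 log2 (-0.56, SE 0.133, adjusted p 0.00259). Hoxc8 was the only Hox gene called lower, at 22.2, 22 and 22.3 CPM in mural-like and 38.6, 37.5 and 44.1 CPM in fibroblast-like cells (log2 difference -1.04, SE 0.148), and it fell short of the fold threshold without library 3 (-0.97), with doublets kept (-0.90) and in 1 fit over all classes (-0.98). Hoxc4, Hoxc5, Hoxc6 and Hoxc9 differed by -0.06, -0.18, 0.26 and -0.71. For Hoxc4 the sign depended on scaling: plain CPM was higher in mural-like cells (18.8 ± 3.83 CPM, against 16.9 ± 1.04 CPM). Of the other genes among the 12 named for their level in fibroblast-like cells, Hoxa9 differed by 0.59 (SE 0.181), Hoxa10 by -0.62 (SE 0.202), Hoxb2 by 0.40 (SE 0.206), Hoxb4 by 0.63 (SE 0.235) and Hoxd8 by -0.71 (SE 0.277), none past the fold threshold. Hoxd8 passed it without library 1 (-1.18), and Hoxa10 did so on cells thinned to 5000 UMIs (-1.11, adjusted p 0.0110). The 9 fibroblast markers summed to 4461, 5840 and 4796 CPM in mural-like cells, against 54332, 56412 and 60957 CPM in fibroblast-like cells, while the HoxC sum was 145.5 ± 11.6 CPM, against 171 ± 10.3 CPM.

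Set directly against each other, mural-like and endothelial-like cells differed in 17 of the 24 Hox genes tested, 8 higher and 9 lower in mural-like cells, where 29.8% of all 11400 genes tested were called. The median log2 difference was -0.65 over Hox genes and 0.01 over all genes. All 6 HoxC genes tested were higher in mural-like cells, by 4.35 to 5.17 on the log2 scale, as were Hoxa9 (3.33, SE 0.411) and Hoxa10 (3.44, SE 0.469). The HoxC genes, nearly absent from endothelial-like cells, entered this test through the mural-like sums and could only come out higher. Hoxc11, not tested here, had 1.96 ± 0.633 CPM in mural-like cells and 0 UMIs in endothelial-like cells, at least 6.84-fold higher. All 4 HoxD genes tested were lower, among them Hoxd8 (-2.24, SE 0.303), as were Hoxb5, Hoxb6, Hoxb7, Hoxb8 and Hoxb9, the last by -3.85 (SE 0.692). For each of the 17 genes called, the values of the 2 classes did not overlap. This is likely for genes picked by the test on the same libraries and adds no support to the calls. No share over all genes is given beside it. The calls for Hoxd3 and Hoxd9 were lost without library 3.

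**Figure D4:**
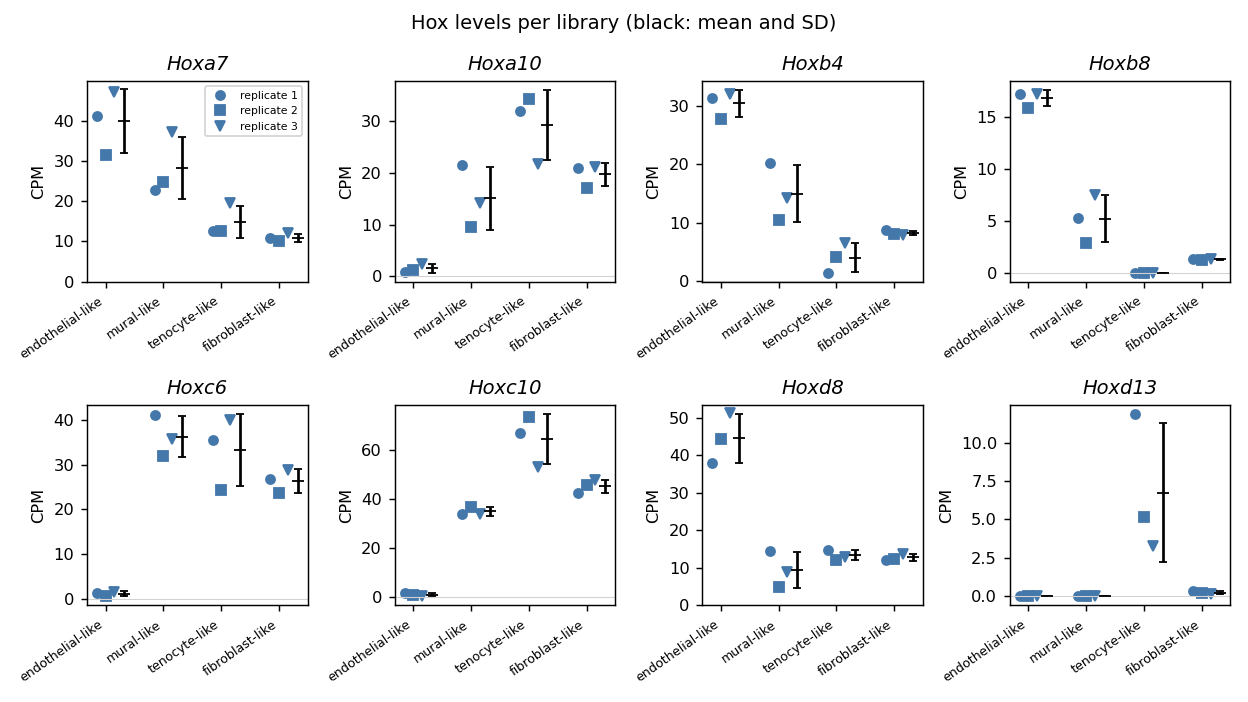
CPM of 8 Hox genes in each of the 3 libraries (marker shape) for endothelial-like, mural-like, tenocyte-like and fibroblast-like cells, with the mean and SD in black. Hoxb8 and Hoxd8 are highest in endothelial-like cells, Hoxc6 and Hoxc10 are near 0 there, and Hoxd13 is found in tenocyte-like cells at 11.9, 5.13 and 3.25 CPM.

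Tenocyte-like cells, marked by Tnmd, Scx, Mkx and other tendon genes, differed from fibroblast-like cells mainly in HoxB. Of 29 Hox genes tested, 8 were called, 2 higher and 6 lower in tenocyte-like cells, where 13% of all 16477 genes tested were called (5.87% higher and 7.14% lower). The median log2 difference was 0.18 over Hox genes and -0.05 over all genes. All 6 lower genes were in HoxB. Hoxb7 had 0.743, 0.963 and 1.08 CPM in tenocyte-like cells and 8.22, 7.29 and 8.27 CPM in fibroblast-like cells (log2 difference -3.07, SE 0.421, adjusted p 3.93e-05). Hoxb6 had 0.371, 0.321 and 1.08 CPM against 6.89, 4.95 and 5.95 CPM (-3.65, SE 0.547). Hoxb2, Hoxb3 and Hoxb4 were lower by -1.52, -1.37 and -1.20 on the log2 scale. Each of these genes was lower in 3 of 3 libraries with no overlap of the groups, which is likely for genes picked by the test. Hoxb8 had 0 UMIs in the 324 tenocyte-like cells and 1.27 ± 0.0421 CPM in fibroblast-like cells, at least 2.82-fold lower. Hoxb9 went the other way, at 2.10 ± 0.952 CPM in tenocyte-like and 0.741 ± 0.181 CPM in fibroblast-like cells (1.61, SE 0.574, adjusted p 0.0499), and this call was lost when any 1 library was left out. The calls for Hoxb3, Hoxb4 and Hoxb8 were lost without library 1, which held 117 of the 324 cells, and that for Hoxb8 also without library 2. Without library 1, 4 of 28 Hox genes tested were called. On cells thinned to 5000 UMIs 2 of 19 Hox genes tested were called. Hoxb2 (-1.46), Hoxb3 (-1.49), Hoxb4 (-1.08) and Hoxb6 (-2.22) were not among them, with adjusted p of 0.0677, 0.200, 0.213 and 0.0560. With DESeq2 the calls for Hoxb4, Hoxb8 and Hoxb9 were lost.

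Hoxd13, the most 5′ HoxD gene and known for its part in the digits, was found in tenocyte-like and fibroblast-like cells and in no other named class. It had 32, 16 and 3 UMIs there, or 11.9, 5.13 and 3.25 CPM, against 0.318, 0.209 and 0.137 CPM in fibroblast-like cells. The lowest tenocyte-like library was above the highest fibroblast-like one, although the tenocyte-like values themselves spread widely (log2 difference 4.90, SE 0.562, adjusted p 6.04e-06). Its neighbours did not share the level: Hoxd12 had no UMI, Hoxd11 had 1 and Hoxd10 had 0 UMIs in tenocyte-like cells. Beyond Hoxd13 lies Evx2, a homeobox gene at the 5′ end of the HoxD cluster, with 8.91, 5.45 and 22.7 CPM in tenocyte-like cells and 0.0254, 0.0558 and 0.0455 CPM in fibroblast-like cells (7.80, SE 0.653). Lnpk, the next gene along, was higher as well (1.45, SE 0.149). The Hoxd13 promoter is shown because the data set this gene apart from the rest of its cluster.
Hoxd13, chr2:74667975-74668224, plus strand: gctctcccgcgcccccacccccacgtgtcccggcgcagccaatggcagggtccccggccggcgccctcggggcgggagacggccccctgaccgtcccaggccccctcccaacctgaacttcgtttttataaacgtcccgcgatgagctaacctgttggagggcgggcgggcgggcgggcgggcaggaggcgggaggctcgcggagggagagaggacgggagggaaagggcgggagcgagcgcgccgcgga
It held no match to the motif, 31 CpG dinucleotides and a GC content of 74.4%, against a median GC content of 52.4% over all promoters.

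The remaining genes of the tenocyte-like code were close to those of fibroblast-like cells. Hoxc10 had 66.8, 73.2 and 53.1 CPM in tenocyte-like cells and 42.2, 45.5 and 47.6 CPM in fibroblast-like cells, higher in each library but short of the fold threshold (0.60, SE 0.122, adjusted p 0.0015). Hoxa10 differed by 0.71 (SE 0.168), Hoxa9 by 0.54, Hoxa7 by 0.42, Hoxc4 by 0.45, Hoxc5 by 0.65, Hoxc6 by 0.34, Hoxc9 by 0.55, Hoxc8 by -0.08 and Hoxd8 by 0.14. No HoxA or HoxC gene was called.

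Muscle fibre-like cells had the highest share of paralogs 9 to 13 of the 6 classes above, from few UMIs. They had a median of 1527.5 UMIs per cell and 250 Hox UMIs in all, so their values are described and not tested. Hoxc10 had 50, 34 and 41 UMIs there, or 118, 167 and 110 CPM, against 42.2, 45.5 and 47.6 CPM in fibroblast-like cells. The muscle fibre-like values were the higher ones in every library. Hoxc9 had 33.2, 29.5 and 13.4 CPM and Hoxa10 had 30.8, 49.1 and 13.4 CPM in muscle fibre-like cells. Both ranges took in the fibroblast-like values of 23.1 to 27 and 17.1 to 21.2 CPM. No HoxB UMI was found among the 250, which allows a HoxB share of up to 1.20%, against 15.1% ± 0.882 in fibroblast-like cells. The 9 fibroblast markers summed to 726 ± 199 CPM in muscle fibre-like cells.

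The 53 satellite or myoblast-like cells had 172 Hox UMIs, again none of them from HoxB, which allows a share of up to 1.74%. Hoxc10 had 37 UMIs (60.8 CPM over the pooled libraries, 95% Poisson interval 42.8 to 83.9) and Hoxc9 had 36 (59.2 CPM, 41.5 to 82.0). The 19 perineurial-like cells had 131 Hox UMIs, 19 from Hoxc4 (61.2 CPM, 36.8 to 95.5) and 18 each from Hoxc6 and Hoxc10 (57.9 CPM, 34.3 to 91.6). The 42 Schwann-like cells had 36 Hox UMIs and a summed level of 70.5 ± 11 CPM, below that of every other non-immune class described here, with no gene above 5 UMIs.

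Macrophage-like cells lacked most of the code. All 28 Hox genes tested were called lower in macrophage-like than in fibroblast-like cells, where 29.9% of all 17203 genes tested were called lower (48.2% in either direction). In each class comparison a gene was tested if its UMIs sufficed in 1 class alone. Hox genes with few macrophage-like UMIs thus entered through the fibroblast-like sums and could only come out lower. The count of 28 is therefore no support beyond the levels themselves. The median log2 difference was -5.47 over Hox genes (-5.34 with the 1 gene at 0 UMIs set to its bound) and -0.14 over all genes. Hoxc10, for example, had 0.212, 0.460 and 0.502 CPM in macrophage-like cells and 42.2, 45.5 and 47.6 CPM in fibroblast-like cells (-6.92, SE 0.155). The fibroblast markers summed to 565, 1086 and 535 CPM in macrophage-like cells, against 54332, 56412 and 60957 CPM in fibroblast-like cells, and the part of free RNA in these low Hox levels was not tested.

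Hoxb4, a gene known for its role in blood stem cells, differed least. It had 2.76, 2.76 and 2.84 CPM in macrophage-like cells and 8.70, 8.02 and 7.98 CPM in fibroblast-like cells, still lower in every library (log2 difference -1.54, SE 0.127). Every other gene tested had a lower log2 difference, down to -7.12 for Hoxc8, and Hoxb9, with 0 UMIs there, was at least 13.3-fold lower. In monocyte-like cells Hoxb4 had 4.78, 2.94 and 7.19 CPM and in neutrophil-like cells 0.686, 1.54 and 0 CPM. The 3 monocyte-like values all lay above the 3 neutrophil-like ones, as did the 3 macrophage-like values. Thinned to 5000 UMIs, 2.70% ± 1.69 of monocyte-like and 1.37% ± 0.349 of macrophage-like cells held a Hoxb4 UMI, and 0.680% ± 0.706 of neutrophil-like cells (3 of 477). Unthinned, the shares were 5.85%, 4.49% and 0.355%, at median depths that differ between the classes. The difference between the thinned shares of macrophage-like and neutrophil-like cells was smaller than the SD of the neutrophil-like share, so it was not detectable at this depth. Hoxb3, whose transcripts overlap those of Hoxb4, had a log2 difference of -2.94 (SE 0.195) in macrophage-like cells.

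Within the fibroblast-like class, 8 states were found by clustering without Hox genes, and they are named here by number and leading genes. Of 27 Hox genes tested, 15 were called in at least 1 state against the mean of the others (55.6%), where 39.6% of all 14862 genes tested were called in at least 1 state. There were 29 calls, 15 higher and 14 lower, and state 6 alone held 12 of them. TMM scaling factors differed by up to 0.31 log2 between states.

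State 6, led by Grm8, Lsamp, Bmp5 and Abca8a, had little HoxB. It held 647 cells (182, 267 and 198 by library) with a median of 13711 UMIs per cell, against 21936 to 45516 in the other states. Of the 27 Hox genes tested, 11 were lower and 1 higher in state 6, where 16% of all genes tested were called (6.91% lower and 9.1% higher), and the median log2 difference was -1.26 over Hox genes and -0.03 over all genes. HoxB supplied 2.39%, 3.11% and 4.58% of its Hox UMIs, against state means of 9.59% to 22.4% in the other 7 states. Hoxb7 had 1.11, 0.633 and 0.304 CPM in state 6 and a mean of 8.0 ± 0.712 CPM over the other states (-3.63, SE 0.299, adjusted p 1.28e-09). Hoxb4 had 1.11, 1.58 and 2.43 CPM, against 8.15 ± 0.677 CPM (-2.33, SE 0.267). In no library did state 6 reach the other states' means. Hoxb2, Hoxb3 and Hoxb6 were lower by -2.34, -1.87 and -2.56 on the log2 scale, and Hoxb8 had 0 UMIs in state 6, at least 3.96-fold lower. Hoxa4, Hoxc8, Hoxc11 and Hoxd8 were lower by -2.29, -1.23, -1.35 and -1.51, and Hoxd4 had 0 UMIs, at least 3.37-fold lower. The calls for Hoxa4 and Hoxc11 were lost without library 3, that for Hoxd4 without library 2, and that for Hoxd8 on cells thinned to 5000 UMIs.

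HoxC supplied 66.6% ± 2.35 of Hox UMIs in state 6. Hoxc10 had 53.9, 54.8 and 51.7 CPM in state 6, and other states lay between 27.2 ± 1.33 and 59.5 ± 1.73 CPM. Hoxc4 had 21.4, 16.8 and 17.0 CPM, inside the range of the other states (11.6 ± 1.49 to 21.4 ± 1.09 CPM). Hoxa2 was the 1 gene called higher, at 1.48, 1.27 and 1.52 CPM from 4, 4 and 5 UMIs, against 0.490 ± 0.157 CPM in the other states (1.55, SE 0.528, adjusted p 0.0195), and this call was lost without library 2 or 3. Since depth differed, cells were also thinned to 5000 UMIs: 4.17% ± 2.22 of state 6 cells then held a HoxB UMI, against state means of 11.8% to 24.5%. Any Hox gene was found in 67.8% ± 5.33 of thinned state 6 cells, against 68.3% to 81.2% in the others. Muscle fibre markers, the RNA of another class, summed to 74.2, 70.9 and 106 CPM in state 6 and to at most 60.1 CPM in a library of any other state. Their part in these results was not tested.

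State 4, led by Spp1 and Mmp13, showed the opposite balance. HoxC supplied 49.2% ± 2.09 of its Hox UMIs, the lowest share of the 8 states, and HoxB and HoxD supplied 22.4% ± 1.45 and 11.3% ± 0.431. Hoxb2 had 19.1, 21.0 and 19.8 CPM in state 4, against 8.32 ± 1.18 CPM in the other states (1.47, SE 0.126, adjusted p 1.27e-09), and Hoxd8 had 20.7, 19.7 and 25.9 CPM, against 9.74 ± 0.615 CPM (1.12, SE 0.107). Hoxa4 and Hoxd4 were higher too (1.46 and 1.75). All 4 calls were higher, where 19% of all genes were called in state 4, and 8.05% were called higher. Hoxc10 was at its lowest of any state, with 25.7, 28.0 and 27.9 CPM, but its difference stayed just inside the fold threshold. Because state 6 is part of the mean the others are set against, the states were also fitted without it, a choice made after its values were seen: Hoxb2 (1.16) and Hoxa4 (1.16) kept their calls in state 4, while Hoxd8 (0.92) and Hoxd4 (0.82) did not, and Hoxc11 became called lower (-1.01).

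**Figure D5:**
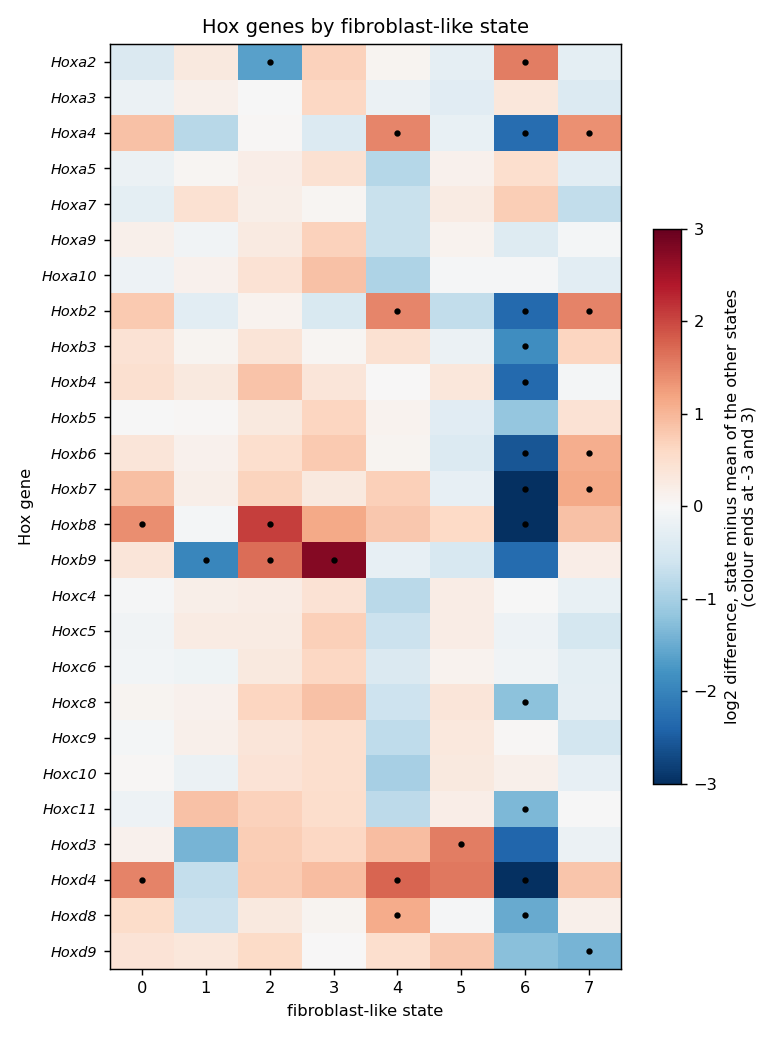
Fitted log2 difference of Hox genes tested in each of 8 fibroblast-like states from the mean of the other states; dots mark calls, and colour ends at -3 and 3. State 6 shows low HoxB, and state 4 shows high Hoxb2, Hoxd4 and Hoxd8. Hoxb8 and Hoxd4 had 0 UMIs in state 6, where the fitted value is no measured size.

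The other states had few calls, but some shifted in many genes by less than the fold threshold. The median log2 difference over Hox genes was 0.53 in state 3 and 0.39 in state 2, against -0.0039 and 0.0076 over all genes. It was 0.12, 0.12, 0.13 and -0.18 in states 0, 1, 5 and 7. In state 3, for example, Hoxc8 had 60.0 ± 9.52 CPM, against 35.8 ± 4.82 CPM in the others (0.87, SE 0.0758). Hoxa10 there had 31.8 ± 2.97 CPM, against 18.4 ± 2.52 CPM (0.89, SE 0.0553). Hoxb9 had 1.79, 3.27 and 1.77 CPM in state 3 (Hs3st5, Fmod and Eln), against 0.468 ± 0.0169 CPM in the other states (2.77, SE 0.329, and 2.50 without state 6), the 1 call there, where 8.78% of genes were called (5.35% higher and 3.43% lower). In state 1 (Car8, Akr1c18 and Smpd3) it had 0, 0.159 and 0.189 CPM, against 0.777 ± 0.135 CPM (-1.95, SE 0.657), where 16.3% of genes were called (6.72% higher and 9.6% lower), and this call was lost without library 1 or 2. Fitted without state 6, state 1 had 5 calls, all lower: Hoxb9 and also Hoxa4 (-1.18), Hoxb8 (-1.06), Hoxd3 (-1.78) and Hoxd4 (-1.71). The share of all genes called in that fit was not counted. State 2 (Saa3, Mmp3 and Cxcl12) had 3 calls where 8.51% of genes were called (5.15% higher and 3.36% lower): Hoxb8 at 2.08 and Hoxb9 at 1.66 higher, Hoxa2 at -1.62 lower, the last lost without library 2 or 3. Hoxb8 had 2.23, 2.12 and 1.92 CPM in state 2 and 0.940 ± 0.0635 CPM in the others. Fitted without state 6, which had 0 Hoxb8 UMIs, Hoxb8 (1.13) and Hoxb9 (1.36) in state 2 kept their calls at smaller differences. Hoxa2 was not tested in that fit. State 7, whose leading genes are those of dividing cells (Mki67 and Top2a), had 5 calls where 19.8% of genes were called (11.3% higher and 8.44% lower). Hoxb2 had 25.8, 20.03 and 14.9 CPM there, against 8.28 ± 0.648 CPM (1.49, SE 0.153), and Hoxa4 was higher (1.37) and Hoxd9 lower (-1.39). Without library 1 the calls for Hoxa4, Hoxb6 and Hoxd9 were lost, and that for Hoxd9 also without library 3. Hoxb6 (1.10) and Hoxb7 (1.13) were called in state 7 as well, but not without state 6 (0.75 and 0.63). State 0 (Kera, Dpp6 and Lrrc15) had Hoxb8 at 1.38 and Hoxd4 at 1.48, where 7.39% of genes were called (4.47% higher and 2.93% lower), and both calls were lost without state 6 (0.41 and 0.55), that for Hoxb8 also without library 1 or 3 and that for Hoxd4 without library 2 or 3. State 5 (Cxcl10, Cxcl13 and C7) had 1 call, Hoxd3 at 1.54, where 8.33% of genes were called (6.93% higher and 1.4% lower), and it was lost without library 3 (1.25). Without state 6 it was called (1.23), and Hoxb2 became called lower (-1.09).

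Genes that act with Hox proteins were examined as 4 lists, described by counts. The Hox cofactors (Pbx, Meis and Pknox genes, whose proteins bind DNA together with Hox proteins) were lower in endothelial-like than in fibroblast-like cells in 6 of 9 cases and higher in none, where 19.7% of all genes were called lower. Meis1 had 0.663, 0.520 and 3.35 CPM in endothelial-like cells and 46.7, 41.6 and 46.1 CPM in fibroblast-like cells (-5.46, SE 0.314), and Pknox2 was lower by -5.09 (SE 0.304). In mural-like and in tenocyte-like cells none of the 9 was called against fibroblast-like cells, where 25.2% and 13% of all genes were called, with medians of -0.40 and -0.43 (all genes -0.11 and -0.05). Mural-like cells had 5 of 8 tested higher than endothelial-like cells, where 16.8% of all genes were, Meis2 among them (4.29, SE 0.315). In macrophage-like cells 6 of 9 were lower than in fibroblast-like cells, where 29.9% of all genes were, among them Meis2 (-6.82) and Pknox2 (-6.33). Cofactors nearly absent from a class entered each test through the other class alone, so their direction was fixed in advance.

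Limb patterning factors were counted in the same comparisons. In endothelial-like cells 15 of 18 tested were lower and none higher than in fibroblast-like cells, where 19.7% of all genes were called lower, and Twist2, Lmx1b, Tbx4 and Tbx5, the T-box gene known for the forelimb, were among them. Tbx5 had 0 UMIs in endothelial-like cells and 9.14 ± 1.75 CPM in fibroblast-like cells. Factors nearly absent from endothelial-like cells entered this test through the fibroblast-like sums and could only come out lower. In macrophage-like cells all 18 tested were lower, where 29.9% of all genes were. Factors nearly absent there entered the test through the fibroblast-like sums and could only come out lower. In mural-like cells 10 of 19 were lower and 2 higher than in fibroblast-like cells, where 13.7% of all genes were lower and 11.5% higher. Prrx2 had 1.31, 1.43 and 2.71 CPM in mural-like cells and 79.5, 78.8 and 77.8 CPM in fibroblast-like cells (-5.67, SE 0.240), and Tbx2 had 152, 133 and 176 CPM against 2.88, 2.96 and 3.73 CPM (5.39, SE 0.128). Set against endothelial-like cells, mural-like cells had all 12 tested higher, where 16.8% of all genes were. Factors nearly absent from endothelial-like cells entered this test through the mural-like sums and could only come out higher. The count of 12 is therefore no support beyond the levels themselves. In tenocyte-like cells 5 of 20 were higher and 2 lower, where 5.87% of all genes were higher and 7.14% lower. Tbx4, known for the hindlimb, had 10.0, 8.98 and 15.2 CPM in tenocyte-like cells and 2.49, 2.08 and 2.43 CPM in fibroblast-like cells (2.26, SE 0.310), without overlap, and Irx5 was lower (-2.58, SE 0.374). In fibroblast state 6, 4 of 19 were higher and 4 lower, where 9.1% of all genes were higher and 6.91% lower.

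Polycomb and Trithorax genes, whose products keep Hox genes off or on, were called at a share below that of all genes in each class comparison. Cbx7 was higher in mural-like (1.72) and in tenocyte-like cells (1.03) than in fibroblast-like cells. In macrophage-like cells 3 of 17 tested were lower, Cbx2 (-2.95), Pcgf2 (-2.80) and Phc1 (-1.07), where 29.9% of all genes were called lower. Of the noncoding and neighbouring genes of the clusters, 5 of 12 tested were higher and 1 lower in endothelial-like than in fibroblast-like cells, where 13.2% of all genes were higher and 19.7% lower. Hoxd3os1, an antisense transcript at Hoxd3, had 13.5, 17.4 and 22 CPM in endothelial-like cells and 3.66, 4.12 and 5.31 CPM in fibroblast-like cells (1.80, SE 0.169), and Hoxaas3 was higher by 2.02 (SE 0.371). In mural-like cells 2 of 11 tested, Hoxb3os (2.75, SE 0.222) and Hotairm1 (1.5, SE 0.152), were higher, and 1 was lower, Skap1, which had 0 UMIs in mural-like cells and 1.04 ± 0.0858 CPM in fibroblast-like cells, where 11.5% of all genes were higher and 13.7% lower. The counting strand was not stated, and whether reads of an antisense gene were counted apart from those of its Hox partner was not tested.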

How the data were processed

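Single-cell 3′ RNA-seq (10x chemistry 3.1) of 3 libraries was deposited as matrices of raw UMI counts per gene and cell barcode; the file headers name Cell Ranger 7.0.0 and the submitters' processing notes Cell Ranger 6.1.2. Neither the genome build nor the counting strand was stated. The members, gene lists and tests were chosen with earlier results of these data known.

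Barcodes with at least 500 UMIs, 200 genes and at most 20% mitochondrial UMIs were kept, and doublets scored with Scrublet were removed at an expected 0.8% per 1000 barcodes, which took 295, 598 and 200 barcodes (4.86%, 6.92% and 4.00%). Pairs of libraries shared 13, 13 and 10 barcodes. Cells were clustered in scanpy 1.11.5 (2000 variable genes, 30 components, Leiden resolution 1 for classes and 0.5 for fibroblast-like states) without Hox genes and the 4 gene lists. Clusters stayed unnamed (1811 cells, of 46 clusters) where UMI counts were low, markers of another class led, markers of several classes scored alike or the best score was low.

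UMI counts were summed per library and class and tested with edgeR 4.0.16 (quasi-likelihood, TMM, filterByExpr, Benjamini-Hochberg over all genes tested; 2 residual degrees of freedom between classes, 14 between states). The library was a block because both sums of a library come from 1 suspension; same-numbered sums deviated together, with correlations between 0.151 and 0.592. Tested on simulated data, 96% of changes of log2 2 were recovered for mural-like minus fibroblast-like cells (16311 genes) and 100% for the fibroblast-like states (14200 genes). The simulated spread was set and not taken from the data, and changes were planted only in genes above a minimum count. These shares therefore do not give the recovery of low-count genes or of changes near the fold threshold. Every Hox gene called could be named, plus the 12 with the highest fibroblast-like CPM, and of each list up to 4 called genes with the largest difference. Alternatives were RLE scaling, DESeq2 1.42.0, no filter, no block, each library left out, doublets kept, at least 1000 genes per cell, thinning to 5000 UMIs, 1 fit over all classes, finer states and, chosen after seeing the data, leaving out state 6. Some results are not reported here. Intervals cover 95% counting error.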

Additional observations from a re-analysis of the deposited data

How the results depend on the processing

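Of 1446 values recomputed for single Hox genes over 137 genes and comparisons, 1363 kept their direction and side of the threshold, 71 were no longer called, 9 became called and 3 changed sign. The 3 belong to Hoxc4 in mural-like minus fibroblast-like cells, which was near 0 (-0.06) and ranged from -0.19 to 0.021 with 1 library left out (0.0044 without replicate 3), with 0.0048 in 1 fit over all classes. With each library left out in turn, 3 to 7 of 28 Hox genes tested were called in mural-like minus fibroblast-like cells (6 with all). In tenocyte-like minus fibroblast-like cells it was 4 to 8 of 28 or 29 tested (8 with all). There DESeq2 gave 5 of 36 tested and thinning to 5000 UMIs gave 2 of 19 tested. For the states this tally holds only genes called with all 8 states present. Without state 6, 8 of 26 Hox genes tested were called in at least 1 state, against 15 of 27 with it. State 1 then had 5 calls, against 1 with it. The share of all genes called without state 6 was not counted, so these counts have no background beside them. The HoxC share of Hox UMIs in endothelial-like cells was 4.83% with doublets kept, against 1.60%, and that in fibroblast-like cells was 61.9% as a mean of CPM over cells, against 59.8%. Shares of cells with a Hox UMI followed depth: without thinning they were 93.2% of endothelial-like, 90.9% of mural-like and 96.9% of fibroblast-like cells, and at 3000 UMIs 61.8%, 61.0% and 56.4%. The cause of these changes was not tested beyond what each setting alters by construction.

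The fits were also run without the replicate block, the pairing of sums by library. Against fibroblast-like cells, 8 of 28 Hox genes tested were then called in mural-like, 10 of 28 in tenocyte-like and 26 of 28 in endothelial-like cells. In macrophage-like cells 27 of 27 were called. In mural-like minus endothelial-like cells 15 of 22 were called, and 15 of 27 in at least 1 state. The number of genes tested changed with the setting in some comparisons. The share of all genes called was not counted in the alternative fits. Classes of few cells (satellite or myoblast-like, Schwann-like and perineurial-like) and genes near 1 CPM are limited by depth.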

Other observations

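Meis2, a gene for a Hox cofactor, parted the 2 endothelial classes. It had 224, 278 and 315 CPM in lymphatic endothelial-like cells, 2.65, 4.42 and 9.56 CPM in endothelial-like cells and 106, 101 and 110 CPM in fibroblast-like cells, with no overlap between the 3 classes. No test was fitted for the lymphatic class, and the gene was chosen after its values were seen.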
